A study of Brassica napus with 12 samples.

Results

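Of the 998 genes that the deposited files list, 72 were expressed in control flowers of the high-phenolic rapeseed genotype G67 and had a mean at least 4 times higher under drought. They were chosen by their G67 values: a mean of at least 0.5 FPKM over the 3 control libraries, and a mean over the 3 drought libraries of at least 4 times that mean, with 6 genes left out by name. FPKM counts sequenced fragments relative to exon length and to the mapped total, so that levels can be compared between genes. The G67 rise of these genes is thus a description with no test. Only their values in the low-phenolic genotype G59 had no part in this rule. How the authors chose the 998 listed genes is not known, and that choice may have rested on G59 values. The study, which looked for genes of phenolic metabolism in drought, sequenced RNA of Brassica napus flowers from both genotypes under control and drought, with 3 libraries in each of the 4 groups. Control plants of G67 and of G59 stood in pots whose soil was held at 30% relative water and were watered with sterile water. Drought plants of G67 and of G59 stood at 10% and were watered with 20% PEG6000, a polymer that lowers the water available to roots. Drought began once flowers were visible on the greenhouse plants, each genotype is a single breeding line, and the top flowers were taken as bulk tissue, so that fewer cells of a type and less RNA per cell cannot be told apart. The labels do not say whether the replicates came from separate plants, and p-values then measure only the spread between these libraries. The methods name fewer cDNA libraries than the 12 of the labels, so that the replicates of a group may share a preparation, and every n, SD and p below takes them as the labels do.

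Under drought, plant cells typically accumulate the hormone abscisic acid. It acts through transcription factors on genes for protective proteins, compatible solutes, cell wall and lipid barriers, and secondary metabolites such as flavonoids. In flowers, water deficit during flowering is known to affect petals, pollen and seed set. Rapeseed is an allotetraploid, so that most genes have a near-identical copy in the other subgenome, and reads of such copies may be divided between them. The identifiers of 68 of the 72 genes are NCBI numbers and 4 are other names. RefSeq (assembly Da-Ae) held 63 of the 72, 62 as protein-coding genes and 1 as a pseudogene. Only LOC106354073 has a further name there, NAC29.1. The other genes are given by their identifiers, without a role, and the flower was not checked against marker genes.

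The 72 genes ranged from just above the floor to the most abundant transcripts of the list. Their G67 control means ran from 0.503 to 349.8 FPKM with a median of 1.81 FPKM, against a median of 9.96 FPKM over all 998 listed genes. Under drought the means ran from 2.83 to 3668 FPKM with a median of 11.5 FPKM, and the median of all listed genes was 11.5 FPKM as well. In control, 20 genes were under 1 FPKM, 42 lay between 1 and 10 FPKM and 10 were above that. Under drought, 9 genes exceeded 100 FPKM, and each of these 9 already had at least 11.3 FPKM in control. The ratio of the drought mean to the control mean was between 4 and 5 for 23 genes, between 5 and 10 for 34 and at least 10 for 15, with a median of 5.96.

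**Figure D1:**
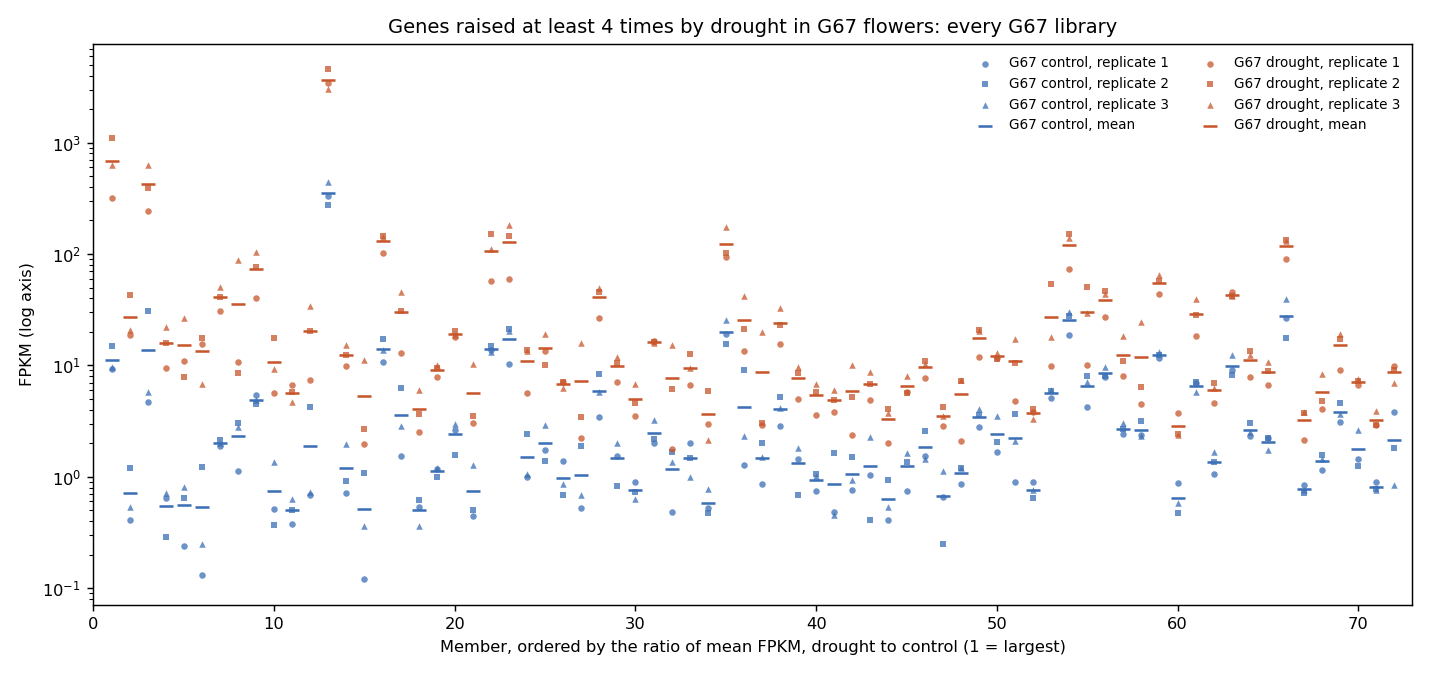
FPKM of the 72 genes in the 6 G67 libraries on a log axis, ordered by the ratio of the means. Points are single libraries (circle, square and triangle for replicates 1, 2 and 3) and dashes are group means. The control libraries, in blue, lie below the drought libraries, in orange, for every one of the 72 genes, and the highest pair of means (349.8 and 3668 FPKM) is LOC106345884.

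In all 72 genes the 3 drought libraries of G67 lay above the 3 control libraries. None of the 72 lay wholly below or overlapped. Among all listed genes 42.7% lay wholly above, 48.6% wholly below and 8.72% overlapped, and nothing is read from the count, since the same libraries chose the genes. The distance between the groups varied widely. The lowest drought value was at least 2 times the highest control value in 58 genes and at least 4 times in 18, and it was less than 1.5 times in 7. The narrowest gap was that of LOC106354542, with 0.48, 1.67 and 1.36 FPKM in control and 1.76, 6.18 and 15.2 FPKM under drought. The widest was that of LOC106353918, whose lowest drought value was 21.3 times its highest control value.

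The FPKM of the 72 genes summed to 567, 598 and 754 FPKM in control replicates 1, 2 and 3, which was 1.11% to 1.55% of the sum over the listed genes. In the drought libraries they summed to 5129, 7868 and 6385 FPKM, or 11.8% to 18.3%. The rule itself fixes a rise of at least 4 times in the summed means, so that nothing is read from the rise. LOC106345884 alone accounted for much of this sum. Without it the 72 genes summed to 235 to 323 FPKM in control and to 1671 to 3378 FPKM under drought. The values used are FPKM of the 998 listed genes, so these are shares of that list, while library depth is unknown.

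LOC106345884 was the most abundant listed gene under drought in G67 and the 28th in control. Its level was 332, 275 and 443 FPKM in control and 3457, 4539.6 and 3008 FPKM under drought. These averaged 349.8 ± 85.3 and 3668 ± 787 FPKM (SD, n = 3 each). Their ratio of 10.5 ± 2.25 has as its error the drought SD divided by the control mean, as do the ratios that follow. Its replicates stayed close together, so that each drought library was well above each control library.

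LOC106353918 had the largest ratio of the 72, at 60.5 ± 35.3. Its control libraries had 9.28, 14.8 and 9.77 FPKM and its drought libraries 315, 1106 and 627 FPKM. The size of the ratio was thus known less well than its direction, since replicate 2 was over 3 times replicate 1 under drought. LOC106348971 had the third-highest drought mean of the group. It had 4.73, 30.7 and 5.72 FPKM in control and 243, 394 and 632 FPKM under drought, a ratio of 30.8 ± 14.3. Replicate 2 of the control was 5.36 times the next control value, and without it the ratio was 80.9. LOC106349619 had the smallest error, relative to its ratio, of the 4 most abundant genes under drought. It had 10.7, 17.3 and 13.9 FPKM in control and 103, 145 and 142 FPKM under drought, a ratio of 9.32 ± 1.69.

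The other genes with the largest ratios had control means of less than 3 FPKM. LOC106345698 had 0.41, 1.21 and 0.54 FPKM in control and 18.7, 42.6 and 21.0 FPKM under drought, a ratio of 38.1 ± 18.3. Without replicate 2 of the control its ratio was 57.7, and its control mean then fell under the floor of the rule. LOC106348034 went from 0.65, 0.29 and 0.71 FPKM to 9.45, 15.9 and 22.2 FPKM, a ratio of 28.8 ± 11.6. LOC106349422 went from 0.24, 0.64 and 0.81 FPKM to 11.03, 7.84 and 26.9 FPKM, a ratio of 27.1 ± 18.1. The groups of both genes lay far apart, although replicate 3 under drought was the highest value in each. Without control replicate 3 their ratios were 33.7 and 34.6, and both control means then fell under the floor of the rule.

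LOC106352980 had 0.13, 1.22 and 0.25 FPKM in control and 15.7, 17.6 and 6.77 FPKM under drought. Its ratio of 25.0 ± 10.8 rested on the control value of replicate 2, without which it was 70.3. The control mean without that library fell under the floor of the rule. LOC106346315 was the most even gene of this set, with 1.89, 2.15 and 2 FPKM in control and 31.0, 40.8 and 50.6 FPKM under drought. Its ratio of 20.3 ± 4.86 had the smallest SD, relative to its size, of the 8 largest ratios. LOC106345167 was the least even of all 72 under drought. It had 1.12, 3.03 and 2.79 FPKM in control and 10.7, 8.55 and 88.55 FPKM under drought, so that its ratio of 15.5 ± 19.7 fell to 4.15 without replicate 3.

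LOC106354073, listed by RefSeq as NAC29.1, belongs by that name to the NAC proteins, a family of plant transcription factors of which several members act in drought and senescence in Arabidopsis thaliana. It had 1.27, 9.15 and 2.31 FPKM in G67 control and 13.4, 21.3 and 41.7 FPKM under drought. Its means were thus 4.24 ± 4.28 and 25.5 ± 14.6 FPKM (SD, n = 3 each). Replicate 2 of the control was 3.96 times the next control value. G59 control listed it at 0 in each library, and G59 drought had 13.4, 13.1 and 4.67 FPKM. Whether this identifier stands for one gene in both genotypes was not tested, as for every gene here.

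At the edge of the rule, the 4 genes just inside the fold limit were LOC106354199, LOC106354212, LOC106350582 and LOC106350461, with ratios of 4.01, 4.02, 4.02 and 4.03. The 4 just outside it were LOC106345834, LOC106353539, LOC106345502 and LOC106352559, with ratios of 3.94, 3.91, 3.88 and 3.87. LOC106345834 was outside although its drought libraries reached 96.3, 320.1 and 127 FPKM, since its control libraries had 25.2, 78.3 and 34.6 FPKM. At the floor, LOC106354254 and LOC106348153 both had a control mean of 0.503 FPKM and were inside. LOC106347199 and LOC106354022 both had 0.490 FPKM and were outside, with drought means of 2.58 and 30.1 FPKM. Genes on both sides of each limit thus lay close in the quantity that it limits, and the limits mark no gap in that quantity. Their other values were not alike. At the floor the ratios were 11.3 for LOC106354254 and 8.11 for LOC106348153 inside. Outside they were 5.27 for LOC106347199 and 61.4 ± 42.5 for LOC106354022, the latter above the 60.5 of LOC106353918, the largest inside the rule.

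The 3 libraries of a group did not contribute evenly to these genes. Under drought, replicate 3 of G67 held the highest value for 43 of the 72 genes (59.7%), against 28.8% of all listed genes. Replicate 1 held the lowest value for 56 of the 72 (77.8%), against 35.3% of all listed genes. In control, replicate 1 held the lowest value for 41 genes (56.9%, against 31.6%) and the highest for 10 (13.9%, against 36.6%). The median over the 72 genes was 7.80, 10.9 and 15.6 FPKM in drought replicates 1, 2 and 3 and 1.41, 1.85 and 1.90 FPKM in the control replicates. Over all listed genes the medians lay between 10.9 and 11.2 FPKM under drought and between 9.70 and 10.7 FPKM in control. These are the libraries that chose the genes, and a high drought value or a low control value helped a gene to pass, so that the shares are a description and nothing is read from their distance to the list.

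**Figure D2:**
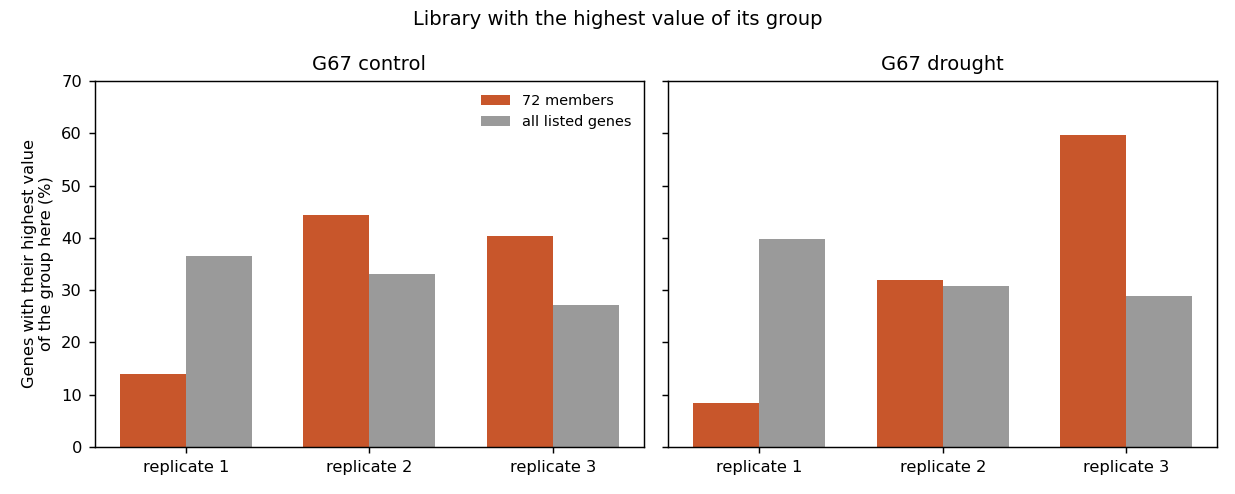
Share of genes, in percent, whose highest value of the group fell in each G67 library, for the 72 members (orange) and for the 998 listed genes (grey). Replicate 3 takes 59.7% of the members under drought against 28.8% of the listed genes, and replicate 1 takes 8.33% against 39.8%.

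In some genes a single library stood far above the others of its group, which lowers the ratio in control and raises it under drought. In control, replicate 2 was at least 2 times both other libraries in 10 of the 72 genes, against 3.71% of all listed genes. Replicate 1 was so in 1 gene (1.4% of all listed genes) and replicate 3 in 4 (2.1%). LOC106349298 was the clearest case, with 0.69, 4.21 and 0.73 FPKM in control and 7.32, 20.5 and 33.9 FPKM under drought. Under drought, replicate 3 was at least 2 times both others in 8 of the 72 genes, against 2.2% of all listed genes. Replicate 2 was so in 2 (against 1.6%) and replicate 1 in 0 (against 2.3%). The same libraries chose the 72 genes, whose median control mean was 1.81 FPKM against 9.96 FPKM over the list. Nothing is therefore read from the distance of these counts to the list. Next to LOC106345167, the widest spread was that of LOC106348810, with 2.94, 3.06 and 19.9 FPKM under drought after 0.86, 2.02 and 1.5 FPKM in control.

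With each of the 6 G67 libraries left out in turn, 37 of the 72 genes met the rule every time. Another 12 missed only the floor of 0.5 FPKM, and 23 missed the fold limit without at least 1 library. The ratio fell below 3 for 4 genes. LOC106345984 had a ratio of 2.73 without drought replicate 3, LOC106348810 of 2.05 and LOC106350416 of 2.07, and LOC106346518 had one of 2.46 without drought replicate 2. These 4 genes were chosen for mention after their values were seen. Of the 9 genes above 100 FPKM under drought, LOC106354161 missed the fold limit, with ratios of 3.56 without control replicate 2, 3.96 without drought replicate 2 and 3.99 without drought replicate 3. The other 8 met the rule whichever single library was left out, although the ratio of LOC106348971 moved from 30.8 to 80.9 without control replicate 2.

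The libraries of G59 had no part in the rule. There the shares of the 72 genes that differed between drought and control lay near those of the whole list. In a limma fit on log2(FPKM + 1) over the 4 groups, with Benjamini-Hochberg adjustment over the 998 genes, genes were called when the adjusted p did not exceed 0.05 and the log2 fold change was 1 or more in size. The spread of a gene was estimated over all 4 groups, so its standard error and p also rest on the G67 libraries. By this test 38 of the 72 genes (52.8%) were higher in G59 drought than in G59 control, where 47.3% of all listed genes were. In the other direction 3 of the 72 (4.17%) were lower, against 6.71% of all listed genes. Estimates given below are log2 fold changes of FPKM + 1 with their standard error (SE). The remaining 31 (43.1%, against 46.0%) were not called. By the libraries alone, drought lay wholly above control in 61 genes (84.7%, against 78.3%), wholly below in 8 (11.1%, against 19.7%) and overlapped in 3 (4.17%, against 2.0%). The median log2 fold change was 1.07 over the 72 genes and 0.98 over the list, a difference of 0.09. These shares near the background are not a result about the 72 genes. How the listed genes were chosen is not known, and only 2.0% of them overlapped in G59. The G59 calls and adjusted p thus hold within this list and may rest on how it was chosen.

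The direction in G59 has to be read against a shift of the whole list. The listed genes summed to 883 to 1059 FPKM in the G59 control libraries and to 3439 to 5267 FPKM in the G59 drought libraries. When the 6 G59 libraries were scaled to each other by the median ratio over the 609 genes above 0 in all of them, a choice made after the data were seen, the median of all genes came down from 0.98 to 0.28. The number of the 72 genes called higher then fell from 38 to 9, where 15.5% of all listed genes were called higher, and the number called lower was 5 in place of 3 (6.94%, against 17.1% of all listed genes). The values of the genotypes also did not rank together, with a rank correlation over the 72 genes of -0.07 between the control means and of -0.09 between the drought means. Over all listed genes these were -0.03 and 0.009, so that this is no trait of the 72. These are correlations across genes, which are not independent replicates. Within a genotype the rank correlation of control and drought means over the 72 genes was 0.83 in G67, where the rule bears on it, and 0.37 in G59. Over all listed genes it was 0.80 in G67 and 0.19 in G59. Every comparison of G59 with G67 presupposes that an identifier stands for one gene in both, which was not tested. The G59 contrast likewise presupposes that an identifier stands for the same gene in control and drought, whose means ranked together at only 0.19. This too was not tested, and it bears on every G59 call and adjusted p given here.

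**Figure D3:**
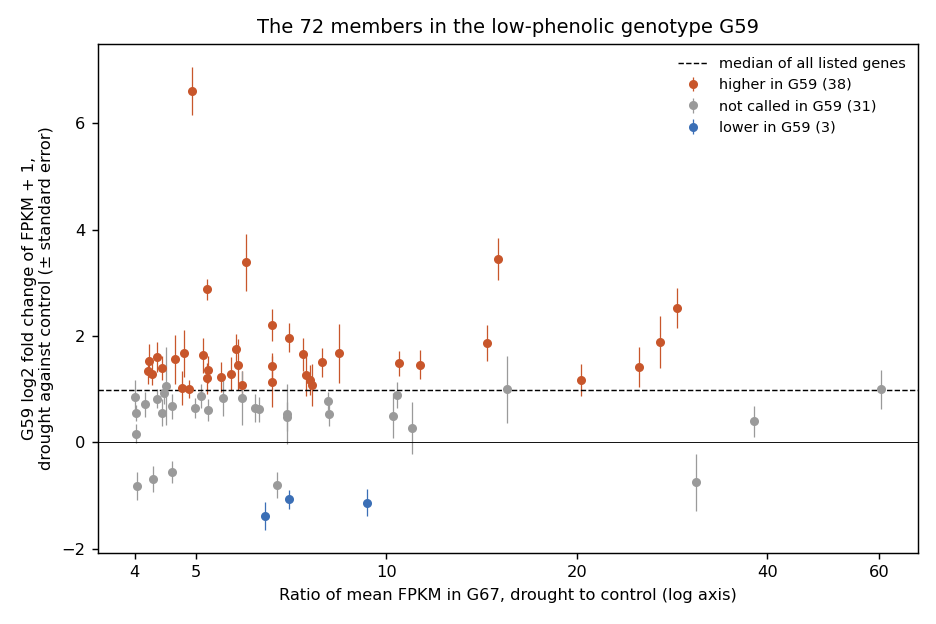
Log2 fold change of FPKM + 1 in G59, drought against control, with its standard error, against the ratio of mean FPKM in G67 on a log axis, for the 72 genes. Orange, grey and blue mark the 38 genes called higher, the 31 not called and the 3 called lower in G59, and the dashed line is the median of the 998 listed genes at 0.98. Genes called higher in G59 occur over most of the range of G67 ratios.

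The size of the G67 ratio is set beside the calls in G59 here. Over all listed genes 47.3% were called higher and 6.71% lower. Of the 15 genes with a G67 ratio of at least 10, 8 were called higher in G59 and 0 lower. Of the 57 with a smaller ratio, 30 were called higher and 3 lower. The median log2 fold changes in G59 were 1.18 and 1.06. The difference between these sets was not tested. Of the 9 genes above 100 FPKM under drought in G67, 5 were called higher in G59, but their highest G59 drought mean was 8.66 FPKM.

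The largest rise in G59 was that of LOC106352671, which was also far more abundant there than in G67. It was listed at 0, 0 and 0.51 FPKM in G59 control and at 132, 160 and 64.2 FPKM in G59 drought, and the limma estimate was 6.60 (SE 0.45, adjusted p = 2.95e-07). In G67 it had 0.89, 3.63 and 2.1 FPKM in control and 4.76, 10.6 and 17.3 FPKM under drought, a ratio of 4.93 ± 2.84. It is the only one of the 72 whose G59 drought mean exceeded 12 FPKM.

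LOC106354301 rose in both genotypes from steady controls. In G67 it had 5.39, 4.49 and 4.92 FPKM in control and 40.4, 76.5 and 105 FPKM under drought, a ratio of 15.01 ± 6.59. In G59 it was listed at 0, 0 and 0.12 FPKM in control and reached 14.1, 15.8 and 4.71 FPKM in drought, and the limma estimate was 3.45 (SE 0.39, adjusted p = 1.95e-05). The NAC29.1 gene LOC106354073 came next, and the limma estimate was 3.39 (SE 0.54, adjusted p = 0.000179).

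LOC106351856 was listed at 0 in the 3 G59 control libraries and at 5.22, 6.98 and 7 FPKM in G59 drought, and the limma estimate was 2.88 (SE 0.20, adjusted p = 2.95e-07). Its G67 libraries had 1.55, 2.57 and 1.43 FPKM in control and 7.65, 10.9 and 10.3 FPKM under drought. LOC106348034 had 0.25, 0.87 and 1.99 FPKM in G59 control and 14.2, 12.2 and 5.72 FPKM in G59 drought, and the limma estimate was 2.53 (SE 0.38, adjusted p = 0.000127). The 5 genes with the largest rises were called under every alternative fit, including the scalings that lowered the whole list, and in each the 3 drought libraries of G59 lay above the 3 control libraries.

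The 3 genes called lower in G59 had risen in G67. LOC106352873 had 1.99, 1.47 and 0.99 FPKM in G67 control and 6.7, 12.5 and 9.43 FPKM in G67 drought. In G59 it had 1.25, 2.78 and 1.07 FPKM in control and was listed at 0 in the 3 drought libraries, and the limma estimate was -1.38 (SE 0.26, adjusted p = 0.000538). Its control FPKM thus overlapped between the genotypes. The median of the control means over all listed genes was 9.96 FPKM in G67 and 0.63 FPKM in G59. Whether its level in the flowers was alike was not tested.

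LOC106349619, one of the abundant genes, had 1.91, 0.73 and 2.26 FPKM in G59 control and 0.09, 0.16 and 0.23 FPKM in G59 drought. Its limma estimate was -1.13 (SE 0.25, adjusted p = 0.00139), and without replicate 3 of the G59 control it was -0.95 and the gene was not called. LOC106352859 had 1.38, 0.68 and 0.86 FPKM in G67 control and 7.15, 7.12 and 6.24 FPKM in G67 drought, a ratio of 7.02 ± 0.53. In G59 it went from 2.31, 3.05 and 3.13 FPKM in control to 0.68, 0.71 and 1.09 FPKM under drought, and the limma estimate was -1.07 (SE 0.18, adjusted p = 0.000241).

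In 16 of the 72 genes (22.2%) the G59 control was listed at 0 in all 3 libraries, as it was in 21.2% of the whole list. The G59 drought means of these 16 ran from 0.117 to 10.4 FPKM with a median of 0.965 FPKM, and 6 of them were called higher. No ratio is given for them. LOC106353918, the gene with the largest G67 ratio, is one of them, at 0.62, 1.77 and 0.77 FPKM in G59 drought. Its limma estimate of 0.997 (SE 0.37, adjusted p = 0.0229) was just under the limit of 1, so that it was not called. For the 56 genes with a ratio in G59, the median ratio of drought to control was 3.58, against 3.36 over the 786 such genes of the list.

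The levels of the genotypes are given as a description, since the rule set a floor for G67. In control, all 3 G67 libraries lay above all 3 G59 libraries for 48 of the 72 genes (66.7%, against 84.0% of all listed genes). For 8 genes (11.1%, against 7.11%) G59 lay wholly above G67, and 16 overlapped (22.2%, against 8.92%). These 8 were all weakly expressed in control, with means of 0.503 to 1.46 FPKM in G67 and 1.24 to 3.01 FPKM in G59. Under drought G67 lay wholly above G59 for 52 genes (72.2%, against 73.4%) and wholly below it for 3, which were LOC106352671, LOC106351547 and LOC106346207 (4.17%, against 9.22%). LOC106346207 had 0.84, 0.71 and 0.76 FPKM in G67 control and 2.12, 3.76 and 3.84 FPKM in G67 drought, against 1.96, 2.54 and 2.3 FPKM in G59 control and 9.72, 8.72 and 4.47 FPKM in G59 drought. It was higher in G59 in both conditions, with no overlap.

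**Figure D4:**
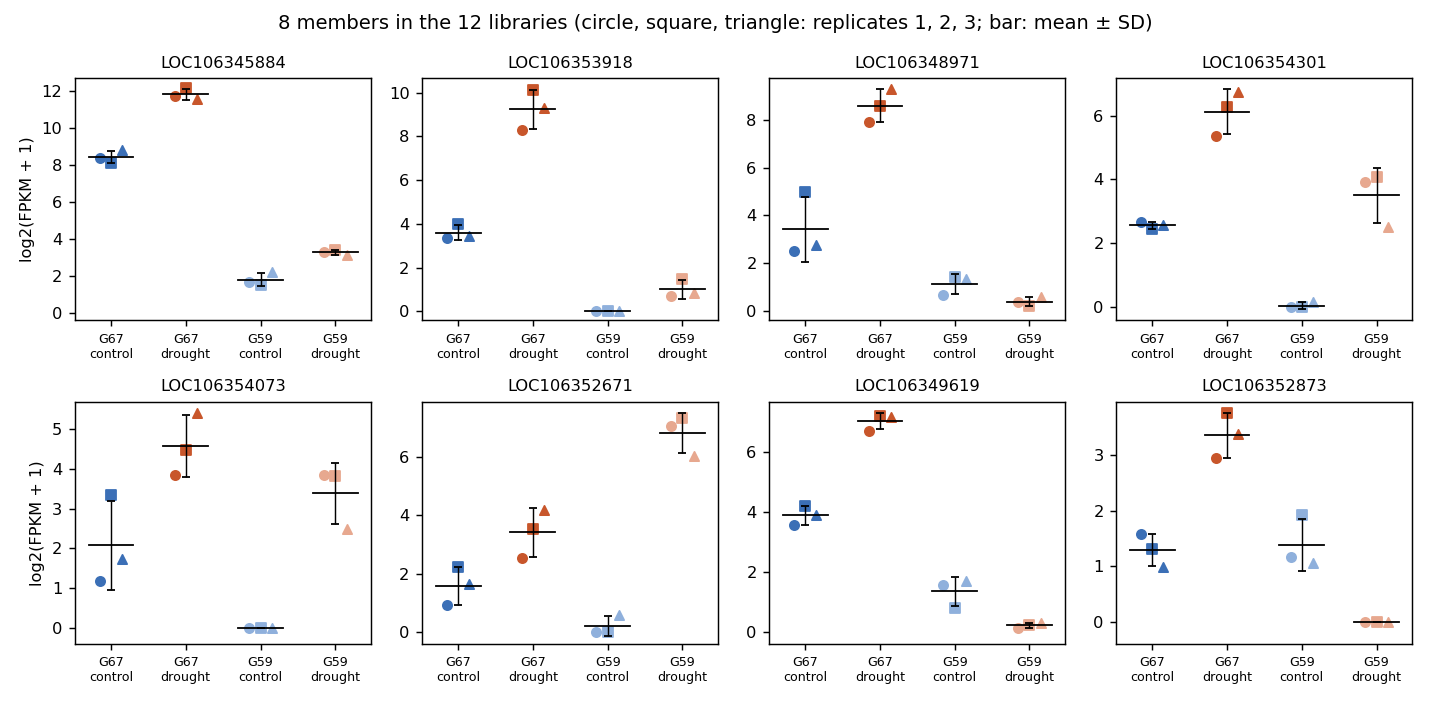
Log2(FPKM + 1) of 8 of the 72 genes in the 12 libraries. Circles, squares and triangles are replicates 1, 2 and 3, and the black bars give the mean ± SD of each group (n = 3). LOC106345884 to LOC106354073 have G67 control means of 4.24 to 349.8 FPKM, above the median of 1.81 FPKM over the 72. LOC106352671 is higher in G59 drought than in G67 drought, and LOC106349619 and LOC106352873 are lower in G59 drought than in G59 control.

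For 2 other sets of the list the same G59 values are given side by side. Among the 78 listed genes with a G67 control mean under 0.5 FPKM and a drought mean at least 4 times as high, 47.4% were called higher in G59 drought and 3.85% lower, with a median log2 fold change of 1.01. Among the 47 genes whose G67 mean fell at least 4 times, 40.4% were called higher and 10.6% lower, with a median of 0.90. Differences between these sets and the 72 genes were not tested.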

How the data were processed

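Reads were cleaned by the authors (NGS QC toolkit) and placed on the Darmor-bzh genome, with an aligner that is not given in the sources used here. Cufflinks 2.0.0 (Cuffquant, then Cuffnorm) gave the FPKM that the authors deposited, to 2 decimals, for 998 genes in each of 12 libraries, and how these genes were chosen is not given in the sources used here. A combined table holds the G67 libraries again, and 5988 of 5988 of its values equalled those of the library files. Its column of ratios between the group means, a comparison by the authors, was not used. The files hold no counts, so depth is unknown, no count test was run and an exact 0 is given as listed at 0.

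Means and ratios were recomputed from the libraries. The G59 contrast was fitted by limma (version 3.58.1, R version 4.3.3) after the transform log2(FPKM + 1), which understates changes of weakly expressed genes, with 1 coefficient per group, Benjamini-Hochberg adjustment over all genes and no filter. The fit was tested on simulated data. Tables and figures used Python 3.11.15, pandas 2.3.3, numpy 2.4.6 and matplotlib 3.10.9. The 72 genes, the lists and the tests were chosen with earlier results of these data known. The genes named are those with the 8 largest G67 ratios, the 4 highest drought means, those nearest the limits of the rule (4 on each side of the fold limit, 2 on each side of the floor), the 5 largest rises and up to 5 largest falls called in G59 without overlap, those with a name in RefSeq, and the 2 widest spreads. Others were named after their values were seen. Identifiers were matched to the RefSeq table of assembly Da-Ae (877 of 998 found), which is another assembly than that used for mapping, so that no coordinates are given. Comparisons of protein and promoter sequences and counts by words of gene descriptions had been planned and were not run, as no sequences or descriptions were used here.

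Replicate numbers recur in every group. Deviations from the group means of same-numbered control and drought libraries correlated across genes at 0.438, 0.190 and 0.194 in G67, where no test was run, and at 0.010, -0.008 and -0.132 in G59. The medians of the listed genes in the G59 control libraries were only 0.49 to 0.57 FPKM. These correlations thus cannot tell whether same-numbered G59 libraries belong together, and the labels do not say so. The alternatives tried were other pseudocounts, filters, scalings, fits, limits of the rule and the leaving out of each library.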

Additional observations from a re-analysis of the deposited data

Results flagged for a closer look

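In 8 of the 72 genes all 3 drought libraries lay above all 3 control libraries in G67 and all 3 lay below them in G59. Among the 426 listed genes above in G67, 71 (16.7%) were below in G59, against 8 of 72 (11.1%) here. The difference between the genotypes was not tested, because the genes were chosen for their G67 rise. The log2 fold changes in G59 were -1.38 for LOC106352873, -1.13 for LOC106349619, -1.07 for LOC106352859, -0.82 for LOC106350461, -0.80 for LOC106348911, -0.75 for LOC106348971, -0.69 for LOC106346680 and -0.56 for LOC106347825. The last 5 were not called in limma at the limit of 1.

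LOC106350461 had 2.4, 2.98 and 1.47 FPKM in G59 control and 0.88, 0.82 and 0.76 FPKM in G59 drought, against 3.08, 4.62 and 3.64 FPKM and 9.08, 17.3 and 19.3 FPKM in G67. LOC106348911 went from 2.51, 3.22 and 3.31 FPKM to 1.43, 1.86 and 0.75 FPKM in G59, and from 1.53, 0.83 and 2.02 FPKM to 7.03, 10.5 and 11.9 FPKM in G67. LOC106348971 had 0.57, 1.63 and 1.5 FPKM in G59 control and 0.28, 0.13 and 0.49 FPKM in G59 drought. LOC106346680 was listed at 0 in the 3 G59 drought libraries after 1.3, 0.59 and 0.14 FPKM in control, and LOC106347825 at 0.12, 0.11 and 0 FPKM after 0.91, 0.34 and 0.55 FPKM. In G67 LOC106347825 went from 7.92, 7.95 and 9.68 FPKM to 27.2, 46.1 and 43.7 FPKM. All 8 falls in G59 were on levels under 4 FPKM.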

How the results depend on the processing

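The rule found 139 genes with a fold limit of 3 and 110 with a floor of 0.1 FPKM. With the other alternatives it found between 49 (fold limit of 5) and 103 (median-ratio scaling of the 6 G67 libraries, 67 of them among the 72), and with each G67 library left out in turn 58 to 82. In G59, 57 of the 72 were called higher and 8 lower with a pseudocount of 0.1 (74.9% and 17.4% of all listed genes), and as many with one of 0.01 (75.1% and 18.1%). With the adjusted p limit of 0.05 as sole condition 54 were higher and 7 lower (734 and 180 of the 998). Median-ratio scaling of the 12 libraries gave 26 and 8 (34.4% and 19.4%), quantile normalization 18 and 10 (26.1% and 21.9%) and median-ratio scaling within G59 9 and 5 (15.5% and 17.1%). The median log2 fold change of the 72 was 2.02 and 2.54 with pseudocounts of 0.1 and 0.01, 0.51 after quantile normalization and 0.34 with scaling within G59. The cause was not tested beyond the scale itself, whose median over all genes moved along, to 1.90, 2.23, 0.29 and 0.28. With each G59 library left out in turn, 34 to 38 genes were called higher and 3 lower, and the median was 1.01 to 1.08. Of all listed genes 42.8% to 52.3% were then called higher and 6.11% to 7.82% lower, with a median of 0.91 to 1.06. With the replicate number as a block the values were 38, 3 and 1.07 (47.4% and 6.71% of all listed genes called). With the block in the fit of the G59 groups alone, added after the data were seen, they were 37 and 3 (47.5% and 6.81%). The block thus moved no count by over 1.5 times. Of 128 values of the 8 genes named for G59, 127 kept direction and call, and 1 kept its direction only. Of 80 ratios of the 10 genes named for G67, 74 moved by less than their SD, 6 by more and 0 fell below 1. An uneven gene has a wide SD and passes this measure easily. The ratio of LOC106345167 moved from 15.5 to 3.82 with group medians, under the fold limit of 4 but within its SD of 19.7. Depth is unknown, so that no counting error can be given for values near 0 FPKM in G59.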

Other observations

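In the gene order of the assembly Da-Ae, 61 of the 72 genes were placed on a chromosome, and 1 pair lay within 10 genes of each other. These were LOC106354068 and the NAC29.1 gene LOC106354073, with 5 genes between them. LOC106354068 had 10.2, 21.2 and 20.2 FPKM in G67 control and 59.1, 146 and 181 FPKM in G67 drought, a ratio of 7.47 ± 3.64. In G59 it was listed at 0, 0 and 0.26 FPKM in control and reached 1.78, 2.68 and 0.75 FPKM in drought, and limma gave a log2 difference of 1.28 (adjusted p = 0.0106). Both genes had their highest G67 drought value in replicate 3, and both rose in G59. No hypothesis was tested on this pair.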
